A study of Mus musculus with 6 samples.

Results

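Genes named Zfp900 to Zfp999 in the embryonic brain count table are described here. They were taken by symbol alone, as Zfp9 followed by 2 further digits, and the rule used no measured value. It found 65 genes of the 53801 in the table, with 64 distinct symbols running from Zfp930 to Zfp995, because Zfp935 stood for 2 gene identifiers. Polyadenylated RNA had been sequenced from whole brains of C57BL/6 mouse embryos at E16.5, in 3 Bahd1-KO embryos (Bahd1-/-) and 3 Bahd1-WT embryos (Bahd1+/+). The labels name no treatment, sex or litter, and both genotypes share the strain and the stage. The comparison asked whether these genes were expressed differently in the fetal brain without BAHD1, a chromatin protein that takes part in the formation of repressive heterochromatin. In bulk tissue, fewer cells of a type and less RNA per cell cannot be told apart.

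KRAB zinc finger proteins are the largest family of transcription repressors in mammals. An array of C2H2 zinc fingers reads a DNA sequence, very often inside a retrotransposon, and the KRAB domain recruits the corepressor KAP1 (TRIM28), which brings the H3K9 methyltransferase SETDB1 and heterochromatin protein 1. The genes multiply by tandem duplication, lie in clusters of near-identical copies, and differ between species and even between mouse strains. Most of the genes described here have no well-known function of their own, so that they are presented by their place in the genome and their level.

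The label of the group was set against the coding sequences of the GENCODE M21 annotation, which is on the GRCm38 assembly of the data. Of the 64 genes with a coding sequence, 59 (92.19%) held a KRAB box pattern, against 123 of 303 (40.59%) other numbered Zfp genes and 116 of 21523 (0.539%) other protein-coding genes. Zfp952, Zfp956, Zfp957, Zfp972 and Zfp974 held no match to the pattern. The pattern had been widened once after it missed genes of known type, and was read on the longest coding sequence of each gene. The share is thus not an independent check of the name, and a miss does not show that the domain is absent. At least 1 C2H2 finger was found in 61 of the 64, with a median of 11 fingers and up to 21 in Zfp974. The exceptions were Zfp957, Zfp972 and the shorter Zfp935 entry (ENSMUSG00000055228). Zfp939 is annotated as a transcribed pseudogene. By this pattern, the name of KRAB zinc finger genes held for most of these genes. It was left undecided for the genes without a match.

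The genes lay on 12 chromosomes, and 46 of the 65 stood in clusters, joined here wherever neighbouring members were less than 500 kb apart. The largest cluster held 16 genes at chr4:145510759-147848366, followed by 10 genes at chr17:21567008-22867134. On chromosome 2, 10 genes fell into 3 clusters at chr2:175372436-175931100, chr2:176521056-176719085 and chr2:177464733-178078476. Smaller clusters held 4 genes on chromosome 7, 3 on chromosome 13 and 3 on chromosome 8.

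Copies in these clusters share long stretches of coding sequence, which bears on how their reads could be counted. Windows of 65 bases, the single-end read length that the methods state for the brain libraries, are shown for 7 genes of chromosome 2. They were chosen for identity in the first 4 genes and the fewest differences from the other 3, so that they show the most alike stretch. The window of Zfp967 came first and capitals mark bases that differ from it.
Zfp967: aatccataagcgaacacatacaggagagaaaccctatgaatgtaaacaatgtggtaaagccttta
Zfp966: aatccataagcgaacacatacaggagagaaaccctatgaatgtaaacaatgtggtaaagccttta
Zfp968: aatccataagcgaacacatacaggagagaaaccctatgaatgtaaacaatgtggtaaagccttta
Zfp969: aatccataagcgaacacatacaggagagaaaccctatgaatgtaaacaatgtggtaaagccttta
Zfp970: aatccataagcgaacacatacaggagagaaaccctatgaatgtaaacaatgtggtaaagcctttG
Zfp971: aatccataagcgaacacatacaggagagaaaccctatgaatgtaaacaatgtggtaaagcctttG
Zfp931: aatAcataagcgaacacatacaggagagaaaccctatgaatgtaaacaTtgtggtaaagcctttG
These windows lie at chr2:176530953-176531017 (Zfp967, plus strand), chr2:175921087-175921151 (Zfp966, minus), chr2:175382411-175382475 (Zfp968, plus), chr2:175693685-175693749 (Zfp969, minus), chr2:177475243-177475307 (Zfp970, plus), chr2:178033134-178033198 (Zfp971, plus) and chr2:178067835-178067899 (Zfp931, minus), each inside a coding exon. The first 4 genes carried the same 65 bases. A read from this window could not be assigned to 1 of the 4. Zfp970 and Zfp971 differed from them by 1 base, in a window present in 9 annotated genes, and Zfp931 differed by 3 bases, in a window found in no other gene.

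The chromosome 4 cluster gave a similar picture, shown for 4 genes, with capitals marking differences from Zfp987.
Zfp987: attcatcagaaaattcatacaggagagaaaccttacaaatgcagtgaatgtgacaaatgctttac
Zfp988: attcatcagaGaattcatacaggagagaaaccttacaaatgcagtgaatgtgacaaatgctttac
Zfp990: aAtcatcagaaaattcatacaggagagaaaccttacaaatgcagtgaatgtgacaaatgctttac
Zfp985: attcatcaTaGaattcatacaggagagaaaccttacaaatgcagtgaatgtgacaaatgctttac
The windows lie on the plus strand at chr4:146125524-146125588 (Zfp987), chr4:147331963-147332027 (Zfp988), chr4:145537790-145537854 (Zfp990) and chr4:147583775-147583839 (Zfp985), again in coding exons. The window of Zfp987 was found in 3 genes and that of Zfp988 in 9 genes. Those of Zfp990 and Zfp985 were particular to these genes, although they differed from Zfp987 by only 1 and 2 bases. This window, too, was chosen for the fewest differences. Over all their transcript windows, 82.24% (Zfp990) and 92.64% (Zfp985) were found in no other gene, and 83.58% for Zfp931 on chromosome 2. Both sets run across the conserved linker between neighbouring zinc fingers.

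Over all 65 genes, the share of 65-base transcript windows found in no transcript of another gene had a median of 86.46%. It was 90% or more in 29 genes. It fell to 0% in Zfp967, Zfp969 and the shorter Zfp935 entry. The chromosome 17 genes were the most distinct of the 3 main clusters, at 87.98 to 100% (median 95%), against 14.66 to 99.7% (median 46.48%) on chromosome 4 and 0 to 83.58% (median 17.2%) on chromosome 2.

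The unit of level is CPM, which stands for counts per 1e6 counts after library sizes were scaled by TMM (trimmed mean of M-values). The libraries held 61.7 to 91.8 in units of 1e6 counts. Bahd1 itself, the targeted gene, had 1971, 3102 and 3470 counts in Bahd1-WT against 2, 10 and 6 in Bahd1-KO embryos, a log2 fold change of -8.40 (SE 0.61) at an adjusted p of 0.046 in the edgeR quasi-likelihood test. Neuron markers were found in every library. The library of Bahd1-KO replicate 3 stood apart from the other 5. Its 6 neuron markers summed to 1899 CPM, against 7009 to 8831, and its 4 lung markers (surfactant and airway secretory genes, all detected) summed to 1076 CPM, against 0.198 and 10.9 in the other Bahd1-KO embryos and 0.272 to 0.455 in the Bahd1-WT embryos. In this library, summed markers were also highest for connective tissue (2054 CPM, against 281.9 to 397.6) and skeletal muscle (38.57 CPM, against 1.343 to 6.693). The same held for dividing progenitors (1126 CPM, against 456.3 to 669.3), blood and microglia. Markers of choroid plexus (60.81 CPM, against 254.3 to 720.4) and glia were lowest in it. Its TMM factor was 0.684, against 1.043 to 1.107. Protein-coding genes held 53.47% of its counts, against 97.78 to 98.4% in the other 5 libraries. Fold changes that moved by over 1.5 times without this library are therefore given both ways. The part of other tissues in the values of the Zfp genes was not tested.

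Most of the Zfp genes were expressed in the fetal brain, at low to moderate levels. A mean of 1 CPM or more was reached by 45 of the 65, with a median of 11.8 CPM and a range of 1.01 to 67.2 CPM. A further 10 genes were below 1 CPM but had at least 10 counts in all, 3 genes had 1 to 9 counts (Zfp957, Zfp980 and Zfp989), and 7 had no count in any embryo. The latter were Zfp966, Zfp967, Zfp968, Zfp969, Zfp978, Zfp987 and the shorter Zfp935 entry. A count of 0 allows up to 0.0297 to 0.0556 CPM per library (3 counts), for counting error only and only for reads that could be assigned to the gene. The other Zfp935 entry (ENSMUSG00000113450), which overlaps the short entry on the same strand and holds 99.23% of its windows, was at 5.66 to 9.36 CPM.

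Genes without a count had little sequence of their own. The 7 genes without a count had 0 to 29.51% unique windows (median 6.42%), and the 45 genes at 1 CPM or more had 21.56 to 100% (median 93.75%). Below 50% unique windows lay 17 genes, of which 9 had fewer than 10 counts and 3 reached 1 CPM. At or above 50% lay 48 genes, of which 42 reached 1 CPM. The 3 genes at 1 CPM with little unique sequence were Zfp960 (21.56%), Zfp991 (21.81%) and Zfp935 (41.48%). Conversely, Zfp957 had fewer than 10 counts with 100% unique windows, and Zfp936 stayed at 0.0559 CPM with 90.9%. Zfp985 (92.64%), Zfp990 (82.24%), Zfp981 (70.52%) and Zfp972 (50.75%) were at 0.214, 0.086, 0.205 and 0.142 CPM. Levels of genes with few unique windows are uncertain, since the parameters stated for the counting name no way of handling reads that align to several places.

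**Figure D1:**
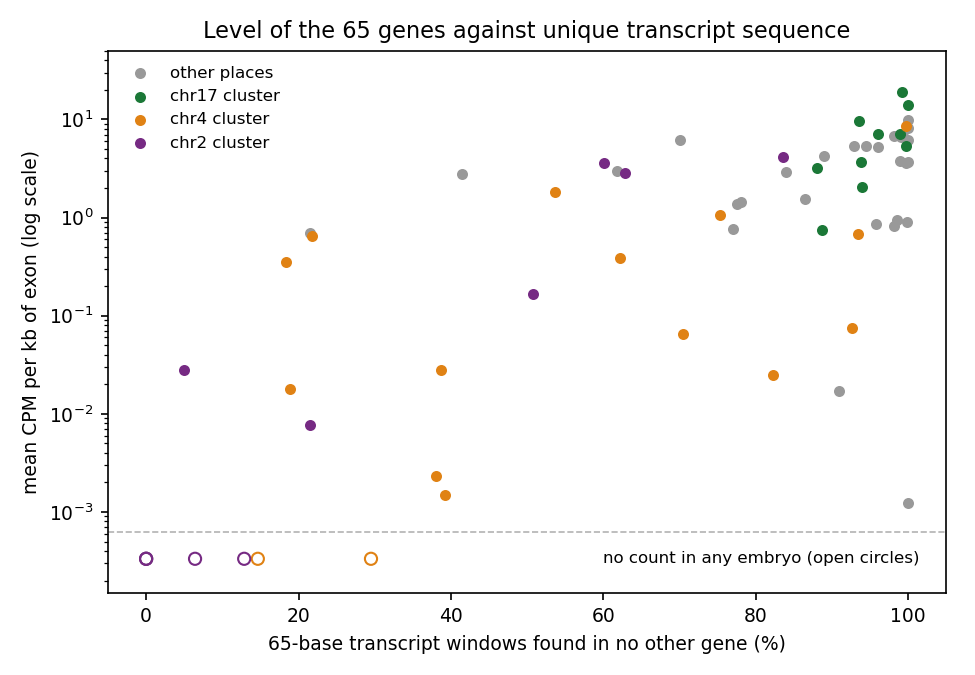
Mean level of each of the 65 Zfp genes over the 6 embryos, in CPM per kb of exon on a log scale, against the percentage of its 65-base transcript windows found in no other gene. Open circles below the dashed line are the 7 genes with no count, all at 29.51% unique windows or less, and colours mark the chromosome 2, 4 and 17 clusters.

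Of the 8 genes with the highest levels per kilobase, 5 stood in the chromosome 17 cluster. Per kilobase of exon, Zfp946 was highest at 19.2 CPM per kb, followed by Zfp948 (13.98), Zfp938 (9.85), Zfp944 (9.56), Zfp933 (8.54), Zfp958 (8.11), Zfp943 (7.06) and Zfp942 (7.03). The others were Zfp938 (chr10:82224850-82241280), Zfp933 (chr4:147822986-147848366) and Zfp958 (chr8:4613167-4630231). The median of the 45 genes at 1 CPM or more was 3.59 CPM per kb.

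Zfp946 (chr17:22424222-22456689, plus strand, 11 fingers, 99.16% unique windows) was at 96.9, 71.8 and 41.4 CPM in Bahd1-KO (replicates 1, 2 and 3 in this order, as in all sentences of this kind) and at 88.8, 48.2 and 56.0 CPM in Bahd1-WT. The groups overlapped, and replicate 1 was highest in both. The difference was within the spread between embryos, with a log2 fold change of 0.12 (SE 0.39, adjusted p = 0.92, edgeR), and of 0.37 without Bahd1-KO replicate 3, and its sign depended on the processing. Zfp948 (chr17:21567008-21588699, 15 fingers) was at 50.3, 37.4 and 31.0 CPM in the Bahd1-KO embryos and at 44.96, 30.6 and 28.3 CPM in the Bahd1-WT embryos. Zfp944 (chr17:22337989-22361400, 11 fingers) was at 35.1, 26.7 and 23.9 CPM and at 33.5, 19.3 and 21.3 CPM, in the same order. Both genes repeated the order of Zfp946 at the top, with Bahd1-KO replicate 1 first and Bahd1-WT replicate 1 second.

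Zfp942 (chr17:21926960-21962464, minus strand) and Zfp943 (chr17:21962552-22071168, plus strand) are transcribed away from each other, with 87 bases between their starts. Zfp942 was at 50.2, 33.4 and 36.9 CPM in the Bahd1-KO embryos and at 46.9, 26.5 and 27.8 CPM in the Bahd1-WT embryos. Zfp943 was at 42.6, 32.9 and 37.4 CPM and at 40.2, 23.1 and 26.7 CPM. The divergent genes ranked the 6 embryos in the same order, and the groups overlapped for both genes.

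Outside chromosome 17, Zfp933 was at 47.8, 33.3 and 34.3 CPM in the Bahd1-KO embryos and at 45.03, 29.7 and 28.7 CPM in the Bahd1-WT embryos. Zfp938 was at 27.9, 22.3 and 12.9 CPM and at 27.7, 17.7 and 17.4 CPM. Zfp958 was at 14.3 to 25.1 CPM, with its 2 highest values, 24.9 and 25.1 CPM, in Bahd1-KO replicate 1 and Bahd1-WT replicate 1. In each of these genes the first replicates of both genotypes were the highest values, and the groups overlapped.

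Promoter sequences were compared with level, because CpG-rich promoters are a common feature of broadly expressed genes. RefSeq promoters (GRCm38.p6, 250 bases before to 50 after the start) were matched by symbol for 54 of the 64 symbols, and CG was counted, which reads the same on both strands. For 2 genes the match lies far from the annotated gene and may not be its promoter. They are Zfp982 (promoter chr4:147442864-147443163, 16 CG, gene from 147492417) and Zfp993 (promoter chr4:146512599-146512898, 4 CG, gene from 146610961). Both are kept in the counts below. The 40 matched genes at 1 CPM or more had a median of 9 CG (3 to 24), and 17 of them (42.5%) had 10 or more, against 45.8% of all 27025 genes with a promoter. The 14 matched genes under 1 CPM had a median of 4.5 CG (3 to 6), and 0 had 10 or more. Zfp965, Zfp966, Zfp967, Zfp968 and Zfp973 among them share most of their promoter sequence, with 5 CG each, and are not independent. The same holds for Zfp980, Zfp981, Zfp985, Zfp987 and Zfp988 on chromosome 4, with 3 to 6 CG. Zfp979 (5 CG, 4.40 CPM) and Zfp984 (9 CG, 5.31 CPM), at 1 CPM or more, have similar promoters to these chromosome 4 genes. The chromosome 2 cluster genes at 1 CPM or more also had few CG. They were Zfp970 (3 CG, 6.24 CPM), Zfp971 (4 CG, 7.71 CPM) and Zfp931 (3 CG, 9.51 CPM). Their promoters share most of their sequence with that of Zfp966, which had no count. Shown are the promoter of Zfp946, the highest gene per kilobase (chr17:22423952-22424251, plus strand, 12 CG), that of Zfp943 (chr17:21962309-21962608, plus strand, 21 CG), which overlaps the promoter window of Zfp942, and that of Zfp966, which had no count (chr2:175931051-175931350, minus strand, 5 CG). Capitals mark CG.
Zfp946: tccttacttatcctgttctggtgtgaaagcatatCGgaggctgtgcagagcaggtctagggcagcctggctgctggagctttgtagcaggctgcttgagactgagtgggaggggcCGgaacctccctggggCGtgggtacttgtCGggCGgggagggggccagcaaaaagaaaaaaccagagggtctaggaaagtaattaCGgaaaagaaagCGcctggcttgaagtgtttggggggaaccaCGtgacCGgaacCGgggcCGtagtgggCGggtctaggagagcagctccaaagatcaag
Zfp943: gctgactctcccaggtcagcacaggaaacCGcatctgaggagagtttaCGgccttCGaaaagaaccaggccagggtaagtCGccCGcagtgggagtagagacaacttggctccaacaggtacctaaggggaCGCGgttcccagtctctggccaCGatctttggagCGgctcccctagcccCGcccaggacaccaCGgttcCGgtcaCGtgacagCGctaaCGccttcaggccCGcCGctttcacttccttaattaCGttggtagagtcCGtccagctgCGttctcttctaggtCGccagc
Zfp966: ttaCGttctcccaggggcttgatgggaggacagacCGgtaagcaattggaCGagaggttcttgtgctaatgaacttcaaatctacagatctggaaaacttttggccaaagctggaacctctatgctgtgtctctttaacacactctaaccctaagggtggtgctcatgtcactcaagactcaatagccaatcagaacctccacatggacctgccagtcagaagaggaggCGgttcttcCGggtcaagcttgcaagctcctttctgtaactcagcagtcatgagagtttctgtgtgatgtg
Genes under 1 CPM also had fewer unique windows, with medians of 44.72% (10 tested genes) and 6.42% (7 genes without a count), and the part of either feature in their low counts was not tested.

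**Figure D2:**
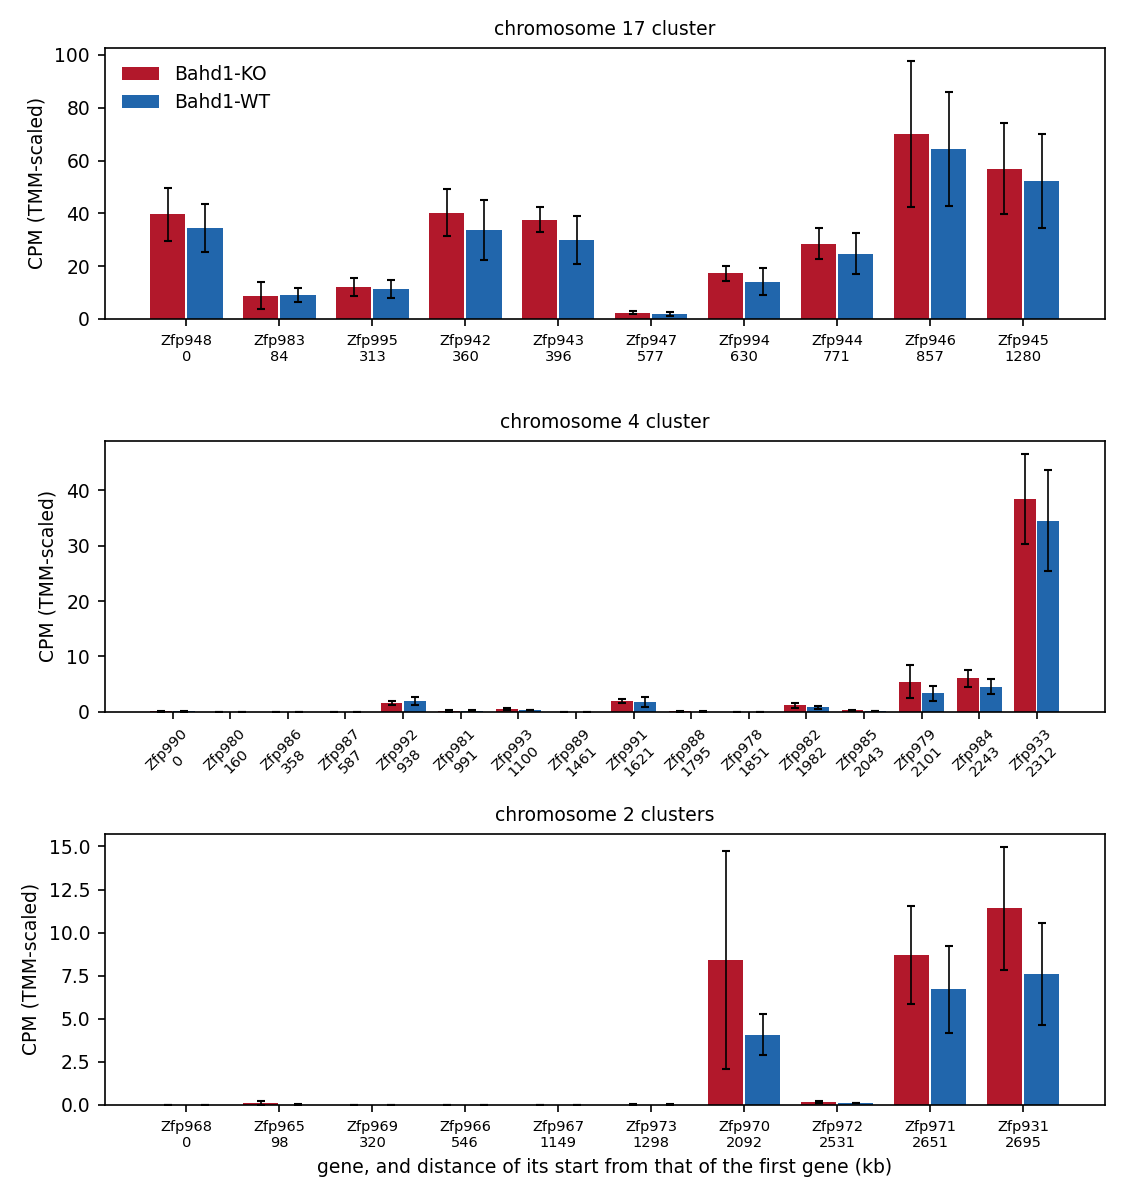
Levels in CPM (bars, mean; error bars, SD, n = 3 embryos per genotype) of the Zfp genes of the chromosome 17, 4 and 2 clusters, in genome order, with the distance of each gene start from that of the first gene in kb. All 10 genes on chromosome 17 were above 1 CPM, against 6 of 16 on chromosome 4 and 3 of 10 on chromosome 2.

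On chromosome 17 the 10 genes together held a mean of 294.8 CPM. The 16 genes on chromosome 4 held 51.9 CPM, most of it from Zfp933, which lies at the end of the cluster and had 99.7% unique windows. The other chromosome 4 genes at 1 CPM or more were Zfp984 (5.31 CPM), Zfp979 (4.40 CPM), Zfp992 (1.78 CPM), Zfp991 (1.91 CPM) and Zfp982 (1.01 CPM). Zfp993, Zfp985, Zfp981, Zfp988, Zfp990 and Zfp986 were tested at means of 0.0257 to 0.448 CPM, and Zfp978, Zfp980, Zfp987 and Zfp989 had fewer than 10 counts. Summed over the cluster, the chromosome 4 genes were at 66.0, 45.5 and 56.4 CPM in Bahd1-KO embryos, against 64.1, 40.0 and 39.8 CPM in Bahd1-WT embryos. The chromosome 17 genes summed to 404.1, 290.2 and 246.3 CPM, against 377.6, 217.9 and 232.8 CPM. The groups overlapped in both. Neither sum differed beyond the spread between embryos (chromosome 4, log2 fold change 0.22, SE 0.29, adjusted p = 0.80; chromosome 17, 0.18, SE 0.32, adjusted p = 0.85, edgeR), and no other cluster sum passed the adjusted threshold either. Without Bahd1-KO replicate 3 the log2 fold changes of these sums were 0.20 and 0.31, again with none past the threshold. That of the 4 genes from Zfp970 to Zfp931 on chromosome 2 went from 0.63 (SE 0.41) to 0.22 (SE 0.33), and that of the 4 genes on chromosome 7 from 0.33 to 0.10.

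No Zfp gene of the group passed the test between genotypes. Of the 55 genes with at least 10 counts, 0 passed an adjusted p of 0.05 (edgeR quasi-likelihood test, background 0.00404% of 24739 genes, which is Bahd1 itself), and DESeq2 likewise called 0. At an unadjusted p under 0.05 there were 0 of 55, against 4.67% of all genes tested. Adjusted p-values ran from 0.70 to 0.995. In TMM-scaled CPM, the groups did not overlap in 1 of the 55, Zfp972, against a background of 6.71% (4.47% with Bahd1-KO higher and 2.24% with it lower). The 10 genes with fewer than 10 counts were not tested.

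The median SE of a log2 fold change was 0.39 over the 55 genes. The 95% intervals of all 55 spanned 0, and those of 17 lay within a 2-fold change in either direction. For each of the others, a 2-fold change in at least 1 direction lay inside the interval. Without Bahd1-KO replicate 3, the intervals of 31 of 54 genes lay within a 2-fold change.

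**Figure D3:**
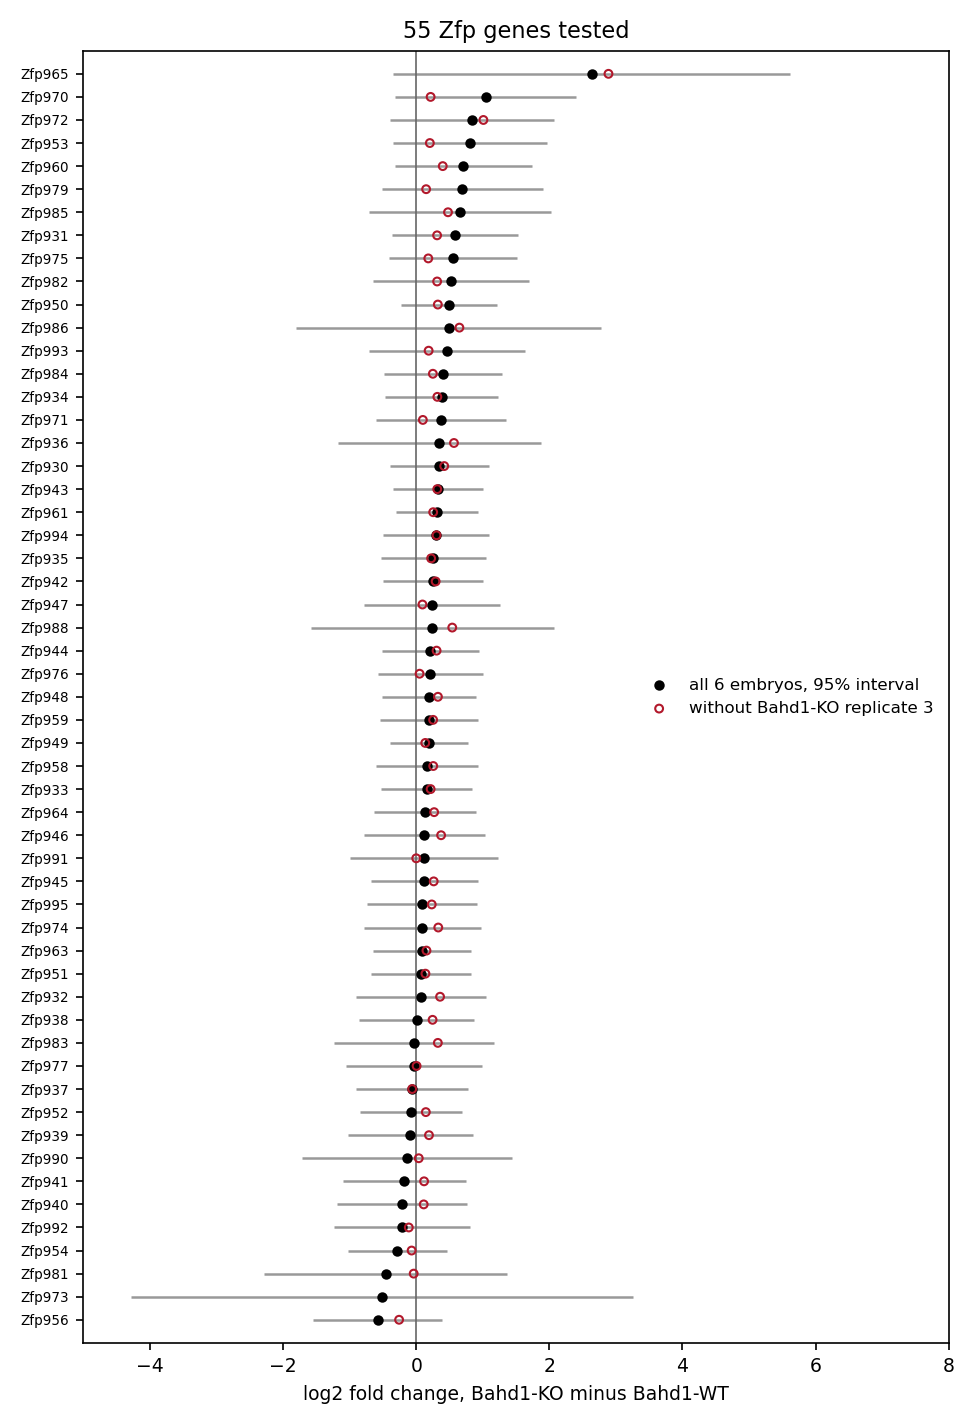
Log2 fold changes of the 55 Zfp genes tested, Bahd1-KO minus Bahd1-WT (black points, all 6 embryos; grey lines, 95% intervals; open red circles, without Bahd1-KO replicate 3). Every grey line crosses 0, and most open circles lie to the right of 0 (49 of 54 drawn).

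Fitted fold changes leaned to the Bahd1-KO side. They were above 0 in 42 of the 55 genes (76.36%), against 53.8% of all genes tested, and below 0 in 13. Their median log2 fold change was 0.19, against 0.06 over all genes and -0.08 over the 300 other numbered Zfp genes tested, of which 116 were above 0. These shares changed with the scaling, for the Zfp genes and for all genes. With total counts, 33 of 55 (60%) were above 0, against 42.1% of all genes. The median was then 0.03 for the Zfp genes and -0.11 for all genes. With upper-quartile factors, 47 of 55 (85.5%) were above 0, against 60.4% of all genes, and the medians were 0.30 and 0.17. The Zfp median stayed 0.13 to 0.14 above that of all genes under these 3 scalings. The Zfp median was 0.04 without Bahd1-KO replicate 1 (29 of 54 above 0, against 50.5% of all genes). It was 0.06 without Bahd1-WT replicate 2 and 0.42 without Bahd1-WT replicate 1. With voom weights for each embryo, 52 of 55 (94.5%) were above 0, with a median of 0.46, against 52.1% and 0.03 over all genes. These are descriptions, and no test was made over the list.

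Without Bahd1-KO replicate 3 the lean was larger. Fold changes were above 0 in 49 of 54 genes (90.74%, background 49.2%), with a median of 0.25 against -0.01 over all genes and 0.03 over the other numbered Zfp genes. Still 0 genes passed the adjusted threshold (background 0.0171% of 23334 genes), and 2 had an unadjusted p under 0.05 (Zfp965 and Zfp972, background 1.48%).

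The levels differed between embryos in a way that crossed the genotypes. Summed over the 65 genes, the Bahd1-KO replicates 1, 2 and 3 held 978.1, 727.0 and 673.8 CPM, and the Bahd1-WT replicates held 914.2, 598.2 and 624.3 CPM. Over the 45 genes at 1 CPM or more, the median log2 level against the mean of the other 5 embryos was 0.44, -0.07 and -0.06 for Bahd1-KO, in order of replicate number, against 0.36, -0.40 and -0.37 for Bahd1-WT. Replicate 1 of each genotype was thus above the other replicates, and the numbers come from the sample titles, which name no batch. With Bahd1-KO replicate 3 left out, the first replicates were the top pair in 42 of the 45 genes. The 284 other numbered Zfp genes at 1 CPM or more gave 0.30 and 0.19 in the same first replicates.

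**Figure D4:**
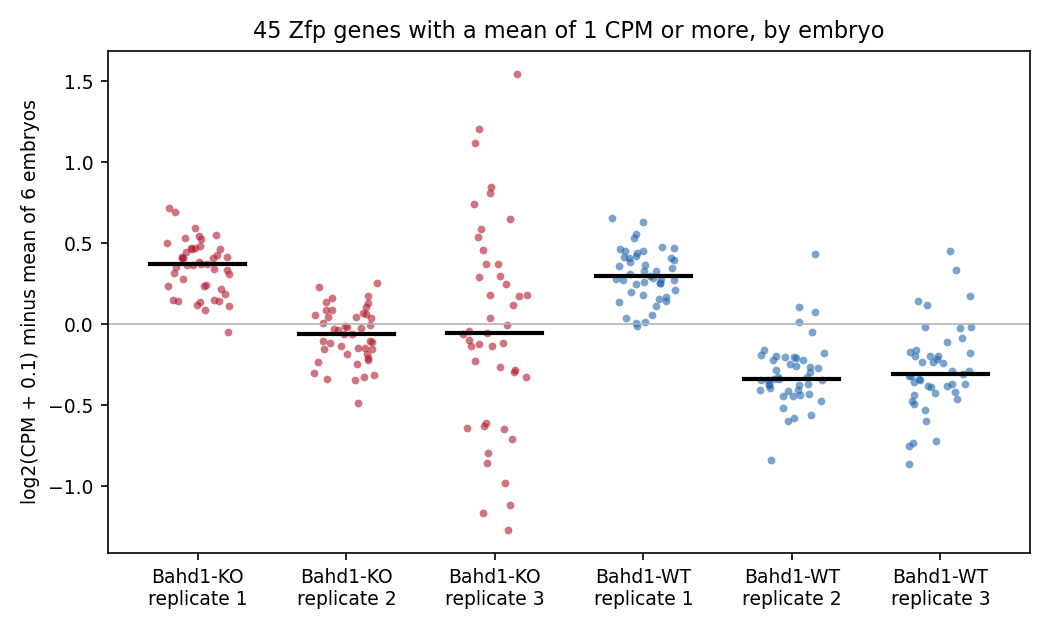
Level of 45 Zfp genes in each embryo (points), as log2(CPM + 0.1) minus the mean of the 6 embryos, with the median as a bar, Bahd1-KO in red and Bahd1-WT in blue. The medians of the first replicates (0.37 and 0.30) lie above those of the other 4 embryos (-0.33 to -0.05), and the points of Bahd1-KO replicate 3 are spread widest.

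This difference between embryos moved with base composition. The transcripts of the Zfp genes are poor in G and C, with a median GC content of 38.59% over the 55 genes tested, against 46.1% in the other numbered Zfp genes and 49.83% in protein-coding genes tested. The mean level in both first replicates was 1.52 times (median, range 0.80 to 1.85) that of Bahd1-KO replicate 2 and Bahd1-WT replicates 2 and 3, and above 1 in 43 of the 45 genes. The exceptions were Zfp954 (0.93) and Zfp956 (0.80), the 2 genes of the 45 with a GC content of 50% or more. Across the 45 genes, which share libraries and are not independent, Spearman's rho between GC content and this ratio was -0.71. The counts of each embryo were then corrected for GC content, a step chosen after seeing the data. The median log2 fold change of the Zfp genes fell to -0.01, with 26 of 55 above 0. Over all genes the median was 0.12, with 58.5% above 0. When Bahd1-KO replicate 3 was also left out, the Zfp median was 0.02 with 31 of 54 above 0, against 51% of all genes. Such a correction would also take out a difference between genotypes that followed GC content. The cause of the lean and of the difference between embryos was not tested.

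**Figure D5:**
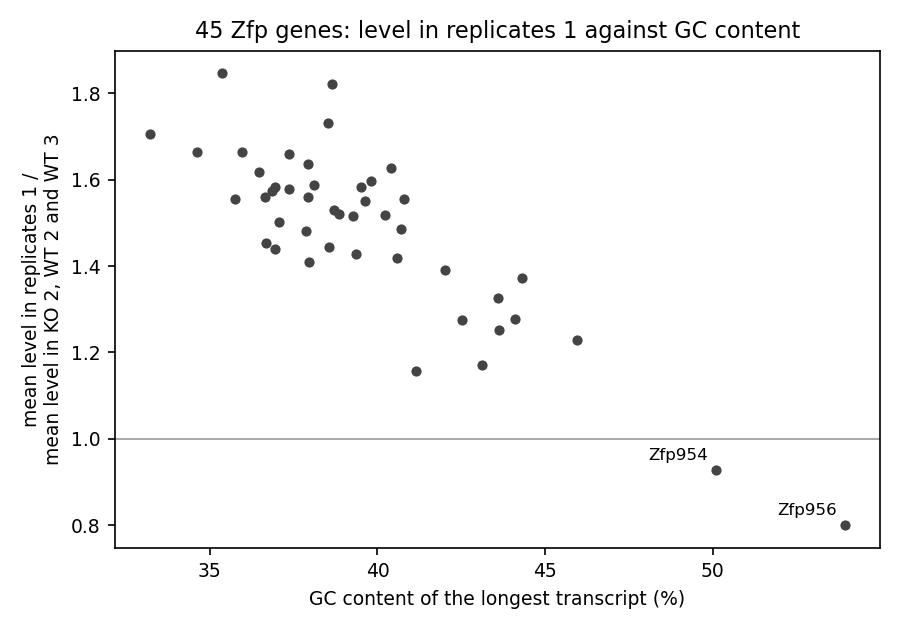
Mean level in the first replicates of both genotypes divided by the mean level in Bahd1-KO replicate 2 and Bahd1-WT replicates 2 and 3, for 45 Zfp genes, against the GC content of the longest transcript in percent. Of the 45 points, 43 lie above 1, and the 2 below are Zfp954 and Zfp956.

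The smallest p-values of the group belonged to Zfp965, Zfp970, Zfp953, Zfp960, Zfp950, Zfp972, Zfp931 and Zfp956, and none passed the adjustment (adjusted p = 0.70 for each, edgeR). Their values fell into genes with few counts, genes high in Bahd1-KO replicate 3, and a gene low in that embryo.

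Zfp965 and Zfp972 had few counts. Zfp965 (chr2:175469985-175482171, 4.92% unique windows) had 1, 21 and 4 counts in Bahd1-KO embryos, while Bahd1-WT embryos had 0, 1 and 4. Most of its counts came from Bahd1-KO replicate 2, and the groups overlapped. Its log2 fold change was 2.63 (SE 1.27), which became 1.22 without that embryo and 4.03 without Bahd1-WT replicate 3, and it shared 82.65% of its windows with Zfp973, which had 10 counts in all. Zfp972 (chr2:177903340-177925613), whose annotated coding sequence of 139 residues held neither a KRAB pattern nor a finger, had 15, 16 and 7 counts in Bahd1-KO embryos, while Bahd1-WT embryos had 10, 9 and 10. In CPM, which includes the TMM factors, these were 0.229, 0.19 and 0.13 against 0.105, 0.102 and 0.099, so that the groups did not overlap. This rests on the TMM factor of 0.684 of Bahd1-KO replicate 3. Its 7 counts came from 78.9 in units of 1e6 counts. The Bahd1-WT embryos had 10, 9 and 10 counts from 91.8, 81.6 and 91.3. By total counts alone that embryo would lie below the Bahd1-WT embryos, and the groups would overlap. The log2 fold change of Zfp972 was 0.84 (SE 0.53).

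Zfp970, Zfp953, Zfp960, Zfp950 and Zfp931 were highest in Bahd1-KO replicate 3. Zfp970 (chr2:177464733-177478129) was at 5.86, 3.74 and 15.6 CPM in the Bahd1-KO embryos and at 5.24, 4.13 and 2.85 CPM in the Bahd1-WT embryos, with a log2 fold change of 1.04 (SE 0.58) that was 0.22 without this embryo. Zfp953 (chr13:67339306-67360605) was at 3.94, 2.83 and 8.47 CPM and at 3.64, 2.42 and 2.64 CPM, with a log2 fold change of 0.81 (SE 0.49) that was 0.20 without it. For both genes the remaining Bahd1-KO embryos lay within or near the range of the Bahd1-WT embryos.

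Zfp960 (chr17:17064113-17089628) was at 2.14, 1.61 and 3.13 CPM in the Bahd1-KO embryos and at 1.82, 1.37 and 1.02 CPM in the Bahd1-WT embryos, with a log2 fold change of 0.71 (SE 0.44) that was 0.40 without Bahd1-KO replicate 3. It shared 77.4% of its windows with Zfp97, a gene named outside the number range. Reads from the shared windows could not be assigned to either gene alone. Zfp950 (chr19:61053840-61140840, 17 fingers) was at 48.7, 31.4 and 53.2 CPM and at 40.3, 29.0 and 25.3 CPM, with a log2 fold change of 0.49 (SE 0.31) that was 0.32 without this embryo. Zfp931 (chr2:178067695-178078476) was at 11.3, 7.86 and 15.0 CPM and at 11.0, 5.90 and 5.90 CPM, with a log2 fold change of 0.58 (SE 0.40) that was 0.31 without it and 0.91 without Bahd1-WT replicate 1. In these genes, too, the groups overlapped. With the GC correction and without Bahd1-KO replicate 3, the log2 fold changes of Zfp960, Zfp950 and Zfp931 were 0.15, 0.022 and 0.019.

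Zfp956 (chr6:47953390-47965300) went the other way. It was at 14.5, 17.9 and 6.15 CPM in the Bahd1-KO embryos and at 16.9, 20.3 and 20.6 CPM in the Bahd1-WT embryos, lowest in Bahd1-KO replicate 3, with a log2 fold change of -0.58 (SE 0.41) that was -0.26 without this embryo and -0.93 without Bahd1-KO replicate 2. It is the gene with the highest GC content of the group, at 53.95%.

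Bahd1-KO replicate 3 also had the widest range of levels. Its ratio to the mean of the other 5 embryos ran from 0.34 to 3.58 over the 45 genes (median 0.94), above 1 in 19 and below 1 in 26. The highest ratios were those of Zfp970 (3.58), Zfp953 (2.74), Zfp979 (2.49) and Zfp975 (2.0), and the lowest those of Zfp956 (0.34), Zfp983 (0.36), Zfp940 (0.39) and Zfp941 (0.44). Zfp979 was at 8.77 CPM in this embryo and at 2.18 to 4.87 CPM in the others, and Zfp975 at 10.9 CPM and at 4.003 to 6.98 CPM. Zfp983 was at 3.61 CPM and at 7.12 to 13.6 CPM, Zfp940 at 9.86 CPM and at 21.7 to 30.5 CPM, and Zfp941 at 11.9 CPM and at 22.9 to 33.0 CPM. Embryos other than this one did not reach its values in either direction for these genes. The other numbered Zfp genes at 1 CPM or more had a median log2 level of -0.58 in this embryo against the other 5. All genes at 1 CPM or more had a median of -0.24, and the 45 genes described here had -0.06.

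The partners through which KRAB zinc finger proteins repress, together with Zfp57, were taken as a list of 17 genes, and 0 passed the adjusted threshold. Zfp57 is itself a KRAB zinc finger gene and also counted among the other numbered Zfp genes. There were 5 above 0 and 12 below, with a median log2 fold change of -0.14, against 53.8% above 0 and 0.06 over all genes. Without Bahd1-KO replicate 3 the median was 0.03 (9 above, 8 below), against -0.01 and 49.2% above 0 over all genes. Trim28, which encodes KAP1, was at 106.8, 196.5 and 65.7 CPM in the Bahd1-KO embryos and at 141.0, 225.7 and 292.9 CPM in the Bahd1-WT embryos. The groups overlapped, with a log2 fold change of -0.84 (SE 0.46, adjusted p = 0.70, edgeR) and of -0.54 without Bahd1-KO replicate 3. It was -1.39 without Bahd1-KO replicate 2, and -0.20 with the GC correction (-0.075 with that correction and without Bahd1-KO replicate 3). Setdb1, the H3K9 methyltransferase, was at 120.6, 104.8 and 72.4 CPM and at 111.8, 120.3 and 116.9 CPM, with a log2 fold change of -0.23 (SE 0.26, adjusted p = 0.77) that was -0.06 without Bahd1-KO replicate 3 and -0.39 without Bahd1-KO replicate 1. Zfp57, the KRAB zinc finger protein that keeps DNA methylation at imprinted genes, was at 28.9 CPM in Bahd1-KO replicate 3 and at 179.9 to 237.0 CPM in the other embryos. Atf7ip2, which encodes a binding partner of SETDB1, had the only unadjusted p under 0.05 of the list in edgeR, 1 of 17 against 4.67% of all genes tested. It had 102 counts in all, with Bahd1-KO levels of 0.336, 0.154 and 0.76 CPM and Bahd1-WT levels of 0.146, 0.0907 and 0.0396 CPM, and its log2 fold change was 2.15 (SE 0.79, adjusted p = 0.70). Without Bahd1-KO replicate 3, its highest value, the log2 fold change was 1.36, and 0 genes of the list had an unadjusted p under 0.05 (background 1.48%). The groups did not overlap for this gene, as for 6.71% of all genes tested.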

How the data were processed

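The table that the authors deposited gives raw read counts for each gene and embryo, without normalization or filter. Per the study's methods they built stranded TruSeq libraries, trimmed reads with cutadapt 1.11, aligned them to GRCm38 and counted exons strand-specifically with featureCounts 1.4.6-p3. The methods also describe a paired-end run, a second cutadapt version and TopHat2 beside STAR 2.5.0a, and do not say which of these made this table. The tools recorded with the samples name cutadapt 1.11 and STAR 2.5.0a and do not name TopHat2.

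A total of 10 counts over the embryos was required of each gene, followed by the two-sided quasi-likelihood test of edgeR 4.0.16 (R 4.3.3), with TMM factors, genotype as the single term and Benjamini-Hochberg adjustment over all genes tested (threshold 0.05). DESeq2 1.42.0, limma 3.58.1 voom, other filters and scalings, each embryo left out, and GC correction (lowess) were alternatives. The GENCODE M21 annotation matched 53706 of 53801 genes and all 65 Zfp entries. The KRAB pattern was widened once after it had missed genes of known type. Where RefSeq gave several promoters, the one with most CG was taken. Named were the 8 genes highest per kb, the 8 smallest p-values, the 4 highest and 4 lowest in Bahd1-KO replicate 3, genes whose groups do not overlap, genes without counts and the chromosome 4 cluster. Others were chosen after their values were seen. Members and lists were chosen with earlier results of these data known. Nothing states separate litters for the replicates, so p-values measure the spread between these embryos.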

Additional observations from a re-analysis of the deposited data

How the results depend on the processing

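No Zfp gene passed the adjusted threshold under any alternative run. The number at an unadjusted p under 0.05, 0 in the fit as reported, was 4 of 55 with voom embryo weights (Zfp930, Zfp943, Zfp946 and Zfp972, against 8.95% of all genes), 1 of 54 with the GC correction and Bahd1-KO replicate 3 left out (2.31%), 2 of 54 with the replicate block and that embryo left out (9.3%), and 0 to 2 when each embryo was left out in turn (0.637 to 20.2%). Among 235 recomputed fold changes of 12 named genes, 6 changed sign. Zfp946 gave -0.12 with the GC correction, -0.18 with the replicate block and GC correction, and -0.18 to 0.39 with each embryo left out. Zfp953 gave -0.068 with the GC correction and Zfp970 gave -0.0057 with the replicate block, both without Bahd1-KO replicate 3. The cause was not tested. Bahd1 ranged from -8.78 to -8.01 with each embryo left out, past the adjusted threshold only without Bahd1-KO replicate 3 (4 genes called) and otherwise at adjusted p of 0.11 to 0.69 in edgeR. It gave -8.49 with the replicate block (adjusted p = 0.23) and -7.81 with the block and GC correction (adjusted p = 0.85), and a filter of 10 counts in every embryo removed it. Same-numbered embryos did not deviate together throughout (r = 0.25, 0.34 and -0.12 over 14825 genes), so that the replicate block rests on a shared number alone. With it, the median of the Zfp genes was 0.21 and 0 genes of the table were called by edgeR (517 at an unadjusted p under 0.05), against 1 in the fit as reported, and 16 once Bahd1-KO replicate 3 was left out. The DESeq2 test called 8 genes over all 6 embryos and 11 without that embryo. With 3 embryos per genotype, few counts limit the 10 tested genes below 1 CPM.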

Other observations

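The clusters also hold protein-coding genes outside the Zfp900 to Zfp999 names. Between the first and the last Zfp gene of the chromosome 2 clusters lay 28 others, 27 of them named with Gm and a number. Of the 28, 10 had no count in any embryo, 9 reached a mean of 1 CPM and 12 were tested. None passed an unadjusted p under 0.05 in edgeR (0 at the adjusted threshold), against 4.67% of all genes tested. The median log2 fold change of the 12 was 0.67 with 11 above 0, against 0.06 and 53.8% over all genes. Without Bahd1-KO replicate 3 the median was 0.27 over 11 tested genes with 10 above 0, against -0.01 and 49.2%. Within the chromosome 4 cluster lay 6 others, of which 1 had no count, 1 reached 1 CPM and 2 were tested, with 0 at an unadjusted p under 0.05.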
